A study of Mus musculus with 8 samples.

Results

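The spliceosome removes introns from nuclear transcripts, and the genes described here encode its general parts and the RNA-binding proteins that steer it. They were every gene in the deposited table whose symbol begins with Srsf, Hnrnp, Sf3a, Sf3b, Snrp, U2af, Prpf or Lsm, with a digit after the symbol stem where the family is numbered. That gave 82 of 13130 genes (81 symbols, since U2af1l4 stands in 2 entries) and 182 of 24526 transcripts. No measured value entered this rule, which was set with earlier results of these data known. They fell into 8 role groups: 11 SR proteins, 20 hnRNPs, 8 Sm core proteins, 4 proteins specific to the U1 or U2 particle, 9 SF3A and SF3B subunits, 4 U2AF entries, 13 PRP factors and 13 LSm proteins.

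RNA was sequenced from the orbital frontal cortex, a prefrontal region, of C57BL/6 mice aged 12 weeks. A control group of 4 libraries had received a scrambled short hairpin RNA (sh-scramble). A knockdown group of 4 libraries had received hairpins directed at the circular RNA circHomer1 and at the linear isoform Homer1b (sh-circHomer1/sh-Homer1b). The labels do not say which of these hairpins a given library received, how it was delivered, or whether separate animals were used, so a p-value here speaks only of the spread between libraries.

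Splicing begins when U1 binds the 5′ splice site and U2AF binds the 3′ splice site, after which the U2 particle with its SF3A and SF3B subunits takes the branch site. The tri-snRNP of U4, U5 and U6, which carries many PRP factors, then joins and is rearranged into the active enzyme. SR proteins mostly promote the use of an exon and hnRNPs often oppose it, and neurons depend on this balance for an unusually large number of alternative exons.

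Summed gene values ranged from 214316 to 224323 FPKM per library (fragments per kilobase of transcript, scaled to mapped fragments, the unit of the deposited values), and the read depth is not known. The 82 genes together made up 0.901% to 0.956% of that sum. The targeted Homer1 gene had a mean of 22.5 ± 3.13 FPKM in control and 17.8 ± 1.49 FPKM in knockdown libraries (SD, n = 4 per group; log2 difference -0.31, limma, Benjamini-Hochberg adjusted p = 0.273). The mean levels of some markers of other cells differed between the groups. All 10 striatal projection neuron markers had a lower mean in the knockdown group, with a summed level of 203 to 731 FPKM in controls and 147 to 428 FPKM in knockdown libraries. All 10 oligodendrocyte markers were also lower (863 to 1084 against 585 to 1164 FPKM), and 0 of 6 astrocyte markers were (238 to 270 against 249 to 310 FPKM). Only 1 striatal, 0 oligodendrocyte and 1 astrocyte marker had a limma unadjusted p under 0.05. The oligodendrocyte score (mean log2 deviation) was -0.39 and -0.66 in knockdown replicates 1 and 4, but 0.21 and 0.37 in replicates 2 and 3. Lower means were mixed among inhibitory neuron (4 of 6), microglia (3 of 6) and endothelial markers (3 of 6). Cortical excitatory neuron markers, which define the labelled tissue, had sums of 204 to 300 FPKM (control) and 247 to 285 FPKM (knockdown). None of the markers listed for these cells was at 0 in any library, and the part of these cells in the results below was tested only through the striatal marker level.

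The splicing genes were well expressed and steady. Their median level over the 8 libraries was 15.2 FPKM, against 6.06 FPKM over the 13004 genes tested, and their median coefficient of variation was 6.71%, against 10.2%. Levels ran from 1.38 FPKM for Lsm2 to 237.6 FPKM for Snrpn. hnRNPs had the highest median level of the 8 role groups, 32.2 FPKM, followed by SR proteins at 25.4 FPKM and the Sm core at 19.97 FPKM. LSm proteins had the lowest, 6.69 FPKM. The steadiest member was Sf3b2, the SF3B subunit that touches RNA upstream of the branch site, at 70.8 ± 1.22 FPKM in controls and 70.9 ± 1.56 FPKM after knockdown (SD, n = 4 each). Its coefficient of variation over the 8 libraries was 1.83%.

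**Figure D1:**
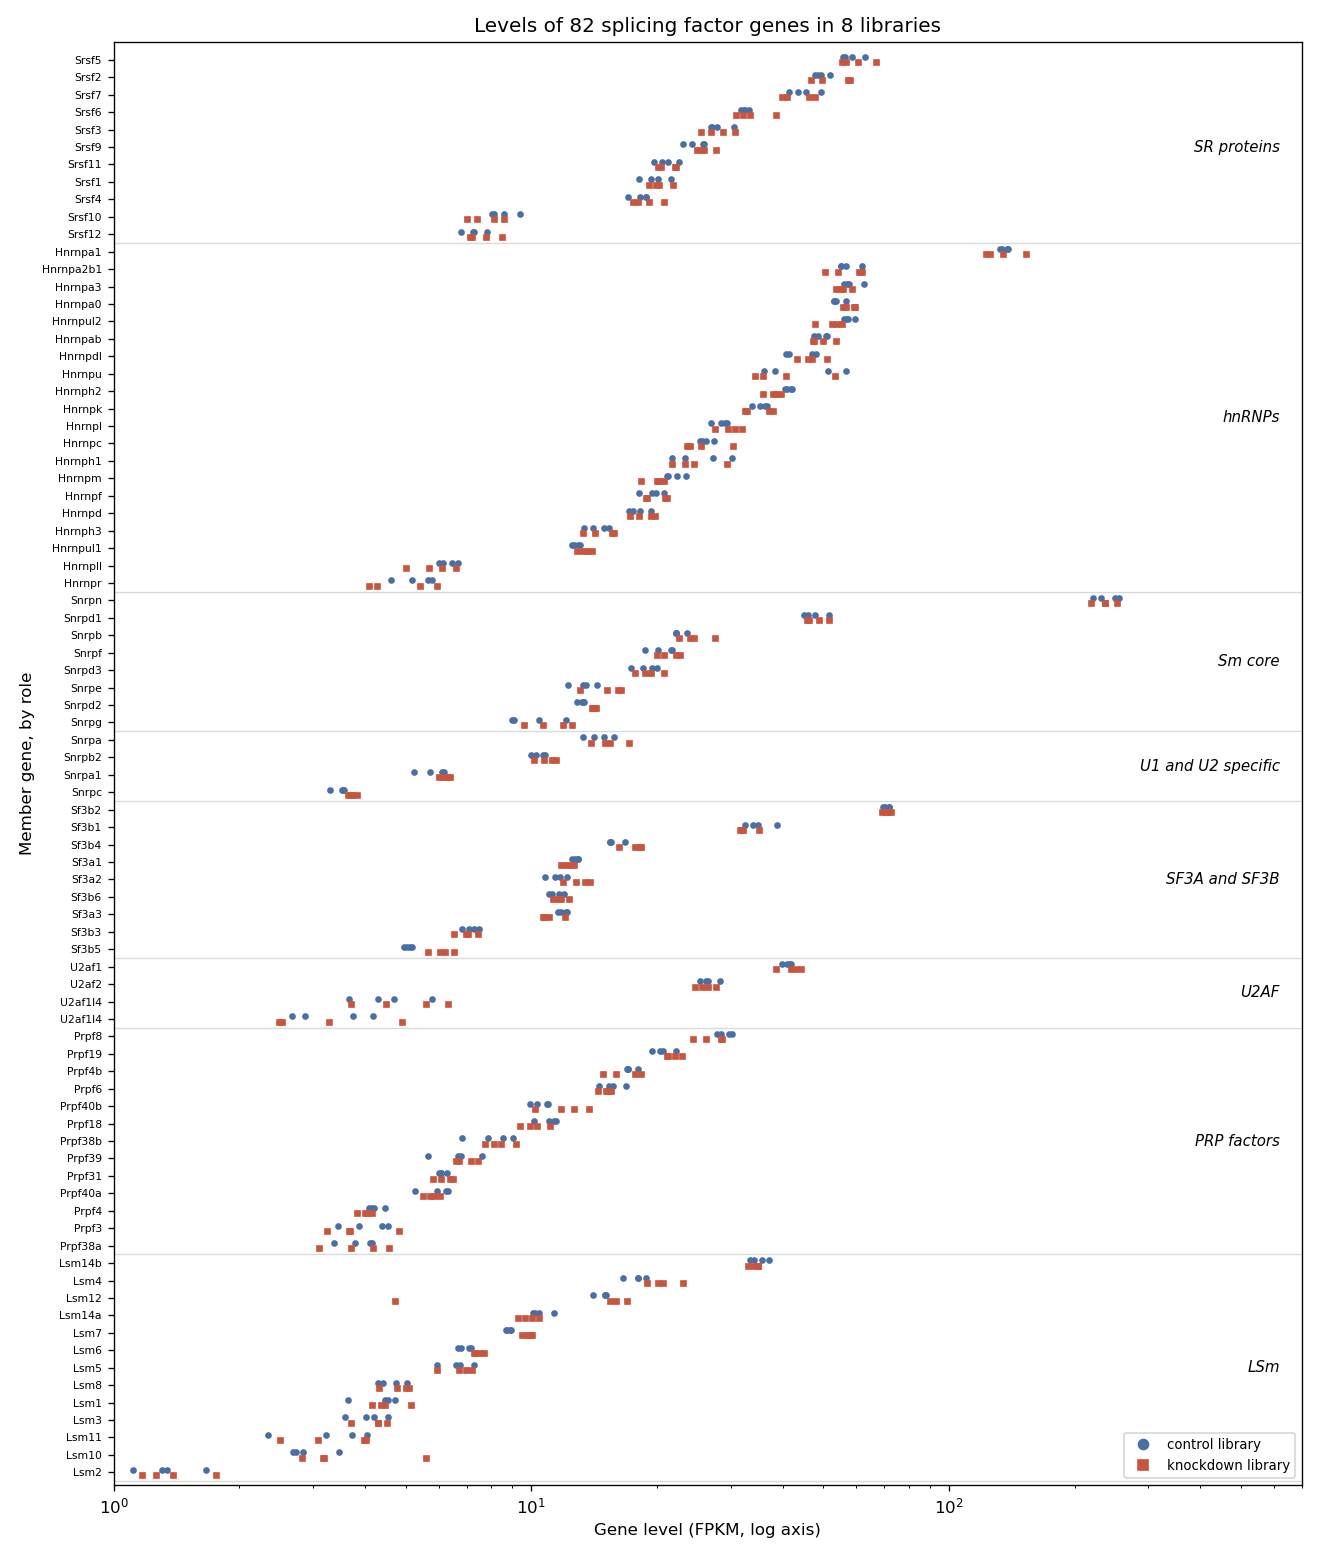
Gene level (FPKM, log axis) of the 82 splicing factor genes, ordered by role and mean level, with 1 point for each of the 4 control (circles) and 4 knockdown (squares) libraries. Snrpn stands highest at a mean of 237.6 FPKM, the points of most genes lie close together, and 1 knockdown library of Lsm12 stands apart at 4.73 FPKM.

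No member differed between the groups at the adjusted threshold. Limma on log2(FPKM + 1) gave 0 members with a Benjamini-Hochberg adjusted p under 0.05 (the smallest was 0.266), as it did for 0% of all genes tested. At an unadjusted p under 0.05, 6 members had higher and 3 had lower values after knockdown. Together that was 10.98% of the members against 14.2% of all genes, 9.1% higher and 5.07% lower. The members' share was thus the lower one here, but the order depended on the setting. It was 9.88% against 9.25% of all genes with a per-library trend over GC content and length removed. Summed listed transcripts gave 13.6% against 11.7%, and leaving out knockdown replicate 4 gave 13.4% against 10.9%. In the other alternatives the members' share stayed below that of all genes. The groups did not overlap for 6 higher and 3 lower of the 82 members, against 771 and 419 of 13004 genes (5.93% and 3.22%). All 82 members passed the filter of a mean of 0.5 FPKM. Of them 50 had a higher and 32 a lower mean log2 value in the knockdown group, where 7143 of all 13004 genes were higher and 5861 lower. With a median-of-ratios rescaling of each library, 43 members were higher and 39 lower, beside 6504 and 6500 of all genes. Quantile normalization gave 41 and 41 members, beside 6438 and 6566 of all genes. The differences ran from -0.28 to 0.22 with a median of 0.024, against 0.015 over all genes. In bulk tissue, fewer cells of a type and less RNA per cell cannot be told apart.

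These small counts moved with single libraries and with scaling. Without control replicate 1, 3 members were higher and 0 lower at an unadjusted p under 0.05. That was 3.66% of the members, and the share of all genes called also fell, to 9.22%. The count of lower members was 1 without control replicate 2, without control replicate 3 or without knockdown replicate 2. In these runs 6.10%, 8.54% and 6.10% of the members were called in either direction, against 10.2%, 11.1% and 12.8% of all genes. With a median-of-ratios rescaling of each library, the split was 5 higher and 4 lower among the members and 964 higher and 839 lower among all genes, where it had been 1183 and 659. With quantile normalization it was 6 and 3 among the members and 990 and 838 among all genes, and with a per-library trend over GC content and length removed it was 4 and 4 among the members and 641 and 540 among all genes.

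SR proteins bind exonic enhancers through RNA recognition motifs and recruit U1 and U2AF through their arginine-serine domains. No SR gene had an unadjusted p under 0.05, 8 of 11 had a higher mean and 3 a lower one, and their median log2 difference was 0.034. The most abundant were Srsf5 (58.4 ± 3.23 against 59.8 ± 5.18 FPKM, control against knockdown, SD, n = 4 each) and Srsf2, which acts at exonic enhancers rich in G or C. Srsf2 read 51.9, 47.8, 49.3 and 48.6 FPKM in controls 1 to 4 and 46.6, 49.7, 58.0 and 57.3 FPKM in knockdown libraries 1 to 4. The knockdown libraries thus split, with replicates 3 and 4 above every control. The same split showed in the SR genes as a group and over all 82 members. Averaged over the 11 genes, the deviation from the gene's mean over all libraries (log2 scale) was 0.082 and 0.073 in knockdown replicates 3 and 4, -0.067 and -0.047 in knockdown replicates 1 and 2, and -0.055 to 0.029 in the controls. Over all 82 members it was 0.047 and 0.032 in knockdown replicates 3 and 4 and -0.039 and -0.0082 in replicates 1 and 2, and over the U2AF entries 0.113 and 0.074 against -0.137 and -0.024. The U2AF entries did not move together in replicate 4. U2af1 and 1 U2af1l4 entry (42.8 and 4.90 FPKM) were above every control, and U2af2 and the other U2af1l4 entry (27.7 and 3.70 FPKM) were not. In the LSm, SF3 and U1 or U2 specific genes replicate 2 (0.018, 0.033 and 0.055) stood near replicate 3 (0.013, 0.043 and 0.053). In the hnRNPs it was 0.067 in knockdown replicate 3 and -0.043 in replicate 4. Of the 11 SR genes, 9 have an annotated transcript marked for nonsense-mediated decay in GENCODE M21, the kind by which SR genes limit their own level. The deposited transcripts were all protein-coding, so these decay products were not analysed here.

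Srsf10 held the member isoform shares with the smallest p. It encodes an SR protein that turns into a general splicing repressor when it is dephosphorylated, as in mitosis and after heat shock. The gene itself (chr4:135855747-135869908, plus strand, GRCm38) read 8.55 ± 0.618 FPKM in control and 7.79 ± 0.716 FPKM in knockdown libraries, and the groups overlapped (log2 difference -0.12, limma adjusted p = 0.470). Its 4 listed transcripts combine 2 choices. Srsf10-202 and Srsf10-204 end in the exon that gives the long protein (261 and 262 codons), and Srsf10-203 and Srsf10-205 end in one that gives the short protein (182 and 183 codons). Within each pair, exon 5 begins at 1 of 2 acceptors 3 bases apart. Srsf10-204 and Srsf10-205 use the upstream one (exon 5 at chr4:135863523-135863576), and Srsf10-202 and Srsf10-203 the downstream one (chr4:135863526-135863576). The joined sequence around the start of exon 5, from the GENCODE M21 transcripts, is shown because the isoforms that differed are told apart there. Capitals mark the 3 bases that the upstream acceptor adds:
Srsf10-204 and Srsf10-205: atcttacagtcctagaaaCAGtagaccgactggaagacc
Srsf10-202 and Srsf10-203: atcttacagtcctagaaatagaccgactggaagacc

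Both transcripts with the downstream acceptor were lower in the knockdown group. Srsf10-203 read 2.90, 2.68, 3.95 and 4.04 FPKM in controls 1 to 4 and 1.38, 1.39, 1.88 and 2.64 FPKM in knockdown libraries 1 to 4. Every knockdown library lay below every control, the closest pair being 2.64 and 2.68 FPKM, and the log2 difference was -0.65 ± 0.18 (SE; limma unadjusted p = 0.00739, Benjamini-Hochberg adjusted p = 0.565). Srsf10-202 read 1.41, 2.27, 1.296 and 1.35 FPKM in controls and 0.902, 0.698, 1.14 and 1.14 FPKM in knockdown libraries. These groups did not overlap either (log2 difference -0.38 ± 0.15, SE; limma unadjusted p = 0.034, adjusted p = 0.601).

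The transcripts with the upstream acceptor did not separate the groups. Srsf10-205, the most abundant, read 8.05 ± 0.991 FPKM in controls and 8.44 ± 0.957 FPKM after knockdown, and Srsf10-204 read 3.67 ± 0.550 and 3.195 ± 0.658 FPKM (SD, n = 4 each). Summed by acceptor, the downstream pair gave 4.97 ± 0.480 against 2.79 ± 0.773 FPKM and the upstream pair 11.7 ± 1.39 against 11.6 ± 0.724 FPKM. As a share of the 4 isoforms, the downstream acceptor made up 26.1%, 26.9%, 32.9% and 33.9% in controls 1 to 4 and 16.9%, 16.2%, 19.9% and 23.4% in knockdown libraries 1 to 4. The highest knockdown library thus lay below the lowest control. These sums were chosen after the transcript values were seen and carry no test. The separation stood within the short form, where the downstream share was 29.8% ± 6.88 in controls and 17.4% ± 3.12 in the knockdown group without overlap. Within the long form the shares overlapped, at 26.6% to 33.7% in controls and 18.6% to 31.4% in knockdown libraries. Srsf10-203 and Srsf10-205 also differ at the 3′ end of their last exon, so the short-form values do not rest on the acceptor alone. The summed isoforms exceed the deposited gene value, which was 0.525 times their sum, so gene and isoform levels are not on 1 scale.

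**Figure D2:**
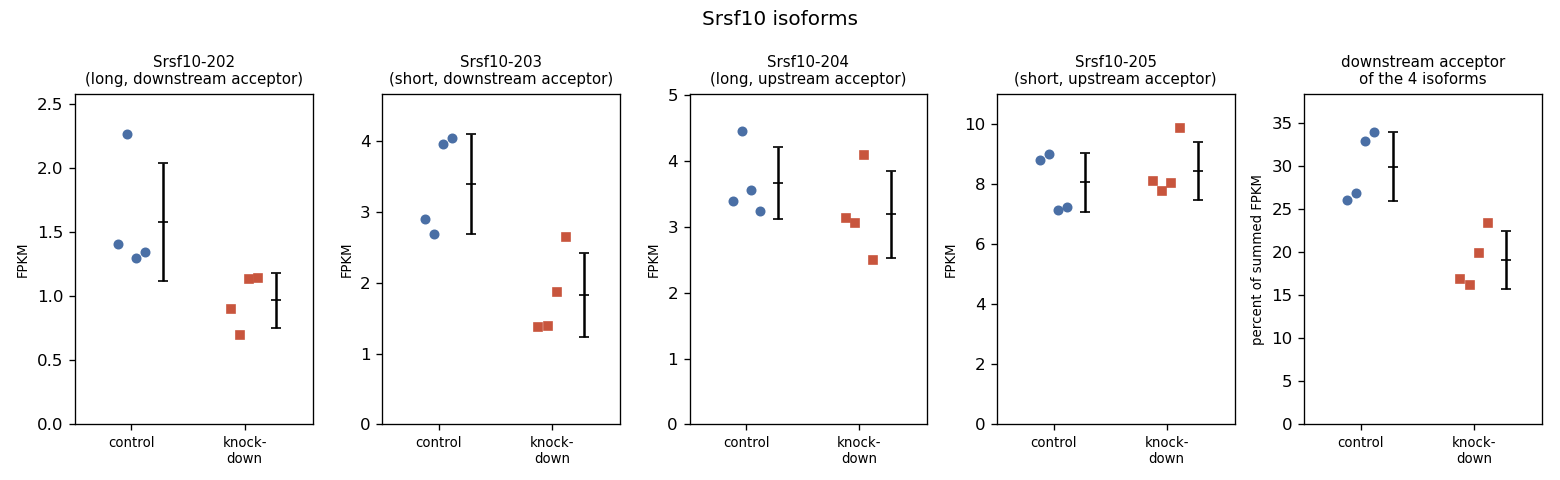
FPKM of the 4 Srsf10 transcripts and, in the last panel, the percent of their sum that uses the downstream acceptor of exon 5, with 1 point per library and bars for the mean and SD (n = 4 per group). Both downstream-acceptor transcripts and the downstream share (29.9% against 19.1% on average) lay below every control in each of the 4 knockdown libraries, and both upstream-acceptor transcripts overlapped between the groups.

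Of 115 isoform shares tested in the members, the shares of 2 Srsf10 transcripts had an unadjusted p under 0.05, against 5.27% of all shares. The Srsf10-205 share was 48.2% ± 3.89 in controls and 58.5% ± 3.68 in the knockdown group, and the Srsf10-203 share 20.6% ± 5.37 and 12.4% ± 2.78 (SD, n = 4 each). Both shares overlapped between the groups, the first by 53.1% in knockdown replicate 3 against 53.4% in control replicate 1. The differences of 10.4 and -8.15 percentage points had limma Benjamini-Hochberg adjusted p of 0.860 and 0.912. Groups did not overlap for the shares of Srsf10-202, Lsm4-205 and both Srsf12 transcripts, which had no unadjusted p under 0.05 and are named after their values were seen. Both Srsf12 shares add up to the whole, so they are the same result. How often groups did not overlap over all shares is not given here, so these cases cannot be set against that rate. Srsf12-201 made up 63.2% to 69.7% of the Srsf12 transcripts in controls and 70.8% to 75.9% after knockdown. No member share passed the adjusted threshold in limma, which 0.0775% of all shares did. The number of member shares under an unadjusted p of 0.05 was 6 without control replicate 2, 5 without knockdown replicate 2, 4 without knockdown replicate 4 and 1 without knockdown replicate 1. The rate over all isoform shares in these runs is not given here.

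The hnRNPs coat nascent transcripts and bind silencer elements, and the 3 members with an unadjusted p under 0.05 and a lower level in the knockdown group were all of this family. These 3 were 15% of the 20 hnRNPs, against 5.07% of all genes lower. With the striatal marker level as a covariate, 0 of these 3 kept an unadjusted p under 0.05. In that fit 2 hnRNPs had an unadjusted p under 0.05 with a higher level, as did 625 of 13004 genes. Of 20 hnRNP genes, 8 had a higher and 12 a lower mean, with a median log2 difference of -0.021. That median was 0.011 with the trend over GC content and length removed and 0.030 with the striatal marker level as a covariate. Hnrnpa1, a repressor of many exons, was the most abundant at 135.5 ± 3.04 FPKM in controls and 134.0 ± 13.9 FPKM after knockdown (SD, n = 4 each), and 54.1% of its 50-base words also occur in another annotated gene. Hnrnpa2b1, which also binds RNAs sent to dendrites, followed at 57.2 ± 3.17 and 57.0 ± 5.52 FPKM.

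Hnrnph2, which binds runs of G, read 42.2, 40.4, 41.9 and 41.1 FPKM in controls 1 to 4 and 37.8, 38.7, 39.7 and 35.9 FPKM in knockdown libraries 1 to 4. The highest knockdown library lay just below the lowest control. The log2 difference was -0.12 ± 0.044 (SE; limma unadjusted p = 0.0235, Benjamini-Hochberg adjusted p = 0.301). Hnrnpm, which favours GU-rich elements, read 23.5, 22.3, 21.3 and 21.1 FPKM in controls and 18.3, 19.9, 20.8 and 20.3 FPKM in knockdown libraries. Its groups were separated by the small gap from 20.8 to 21.1 FPKM, with a log2 difference of -0.14 ± 0.055 (SE; limma unadjusted p = 0.0285, adjusted p = 0.312). Hnrnpul2, a relative of the nuclear scaffold protein Hnrnpu, read 59.7, 55.9, 56.6 and 57.3 FPKM in controls and 54.0, 52.6, 55.4 and 47.8 FPKM in knockdown libraries. It too was lower in each knockdown library than in any control, by 55.4 against 55.9 FPKM at the closest (log2 difference -0.13 ± 0.054, SE; limma unadjusted p = 0.0408, adjusted p = 0.337). With the striatal marker level as a covariate, the log2 difference was -0.08 for Hnrnph2, -0.10 for Hnrnpm and -0.08 for Hnrnpul2.

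An isoform of Hnrnpm was also lower. Hnrnpm-206 (729 codons) read 20.6, 17.5, 18.3 and 17.4 FPKM in controls and 14.4, 16.2, 16.1 and 16.0 FPKM in knockdown libraries, without overlap (log2 difference -0.22 ± 0.069, SE; limma unadjusted p = 0.0123, Benjamini-Hochberg adjusted p = 0.565). Hnrnpm-201 (690 codons), from which a stretch of 117 coding bases is spliced out, read 6.89 ± 0.709 FPKM in controls and 7.33 ± 0.509 FPKM after knockdown (SD, n = 4 each), and the groups overlapped. As a share of both isoforms, Hnrnpm-206 was 72.8% ± 2.43 and 68.1% ± 1.78, with overlap. Their 5′ ends also differ, at position 33686860 for Hnrnpm-206 and 33685388 for Hnrnpm-201, so these values do not rest on that stretch alone. Of the 50-base words of Hnrnpm-206, 28.8% also occur in another annotated gene, and Hnrnpm overlaps exons of March2 on the same strand. The coding stretch that separates both isoforms (chr17:33666530-33666646, minus strand, GRCm38, GENCODE M21) is printed in lower case throughout because none of it is singled out:
Hnrnpm-206: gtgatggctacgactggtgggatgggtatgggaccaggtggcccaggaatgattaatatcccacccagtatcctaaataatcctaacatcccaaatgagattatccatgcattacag

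Hnrnph2-203 was also lower, at 20.01 ± 0.622 FPKM in controls and 17.1 ± 2.003 FPKM after knockdown (SD, n = 4 each), without overlap (log2 difference -0.22, limma unadjusted p = 0.035, Benjamini-Hochberg adjusted p = 0.602). It encodes the same 449 codons as the 3 other listed Hnrnph2 transcripts. Hnrnpu, named after its values were seen, was the most variable hnRNP and varied within both groups. It read 56.6, 51.3, 38.4 and 36.1 FPKM in controls and 53.4, 35.9, 40.7 and 34.3 FPKM in knockdown libraries, so 3 libraries were high and 5 low, and both kinds occurred in each group.

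The Sm core is the ring of 7 proteins that forms on U1, U2, U4 and U5 RNA. Snrpn, the form of the SmB subunit used in neurons and expressed from the paternal allele, stood far above the other members. It read 220.6, 250.3, 231.6 and 255.2 FPKM in controls 1 to 4 and 236.5, 252.0, 218.6 and 235.9 FPKM in knockdown libraries 1 to 4, with the groups intermixed (log2 difference -0.02, limma adjusted p = 0.895). Its direction turned without control replicate 2 (0.0004), control replicate 4 (0.0098) or knockdown replicate 3 (0.014). Snrpb, the general form of the same subunit, read 22.2, 22.2, 22.3 and 23.5 FPKM in controls and 22.6, 24.5, 24.0 and 27.6 FPKM in knockdown libraries (log2 difference 0.12, limma adjusted p = 0.404, and 0.01 with the trend over GC content and length removed). Snrpn thus stood 10.6 ± 0.558 times above Snrpb in controls and 9.60 ± 0.927 times in the knockdown group (SD, n = 4 each), with overlap. The Snrpn value shares exons on the same strand with Snurf, and reads of these genes may not be told apart.

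The other Sm genes had small positive differences. Snrpd1 followed Snrpn in level at 47.6 ± 2.92 and 48.1 ± 2.62 FPKM (control and knockdown, SD, n = 4 each). Snrpd2, which pairs with Snrpd1 in the ring, read 13.3, 12.9, 13.3 and 13.2 FPKM in controls and 14.0, 14.3, 14.0 and 14.1 FPKM in knockdown libraries. The spread within each group was narrow and the groups did not overlap, so a log2 difference of only 0.09 ± 0.037 (SE) had a limma unadjusted p of 0.0369 (Benjamini-Hochberg adjusted p = 0.332). After median-of-ratios rescaling, or with the striatal marker level as a covariate, 0 of 8 Sm genes had an unadjusted p under 0.05, and with the trend over GC content and length removed the difference of Snrpd2 was 0.04. Of the 8 Sm genes, 7 had a higher mean in the knockdown group, with a median log2 difference of 0.074, or 0.057, 0.061 and 0.040 after median-of-ratios rescaling, quantile normalization and removal of the GC content and length trend. With Snrpn left aside, the sum of the ring genes was 146.2 ± 3.95 FPKM in control and 153.8 ± 6.82 FPKM in knockdown libraries, and the groups overlapped.

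All 4 genes specific to the U1 or U2 particle had slightly higher means in the knockdown group, with log2 differences of 0.06 to 0.08. None had an unadjusted p under 0.05. With the trend over GC content and length removed, 2 were higher and 2 lower. Snrpa, which binds a stem-loop of U1, read 14.5 ± 1.053 and 15.4 ± 1.34 FPKM, and Snrpb2, its counterpart on U2, 10.4 ± 0.361 and 10.9 ± 0.591 FPKM (control and knockdown, SD, n = 4 each). Snrpc, which steadies the pairing of U1 with the 5′ splice site, read 3.30 to 3.55 FPKM in controls and 3.63 to 3.82 FPKM in knockdown libraries. Its groups did not overlap, and the limma unadjusted p was 0.140.

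Among SF3A and SF3B subunits, 3 of 9 genes had an unadjusted p under 0.05, all higher in the knockdown group, against 9.1% of all genes higher, while the median of the 9 was 0.0014 on the log2 scale and below 0 after either rescaling or the removal of the GC content and length trend (-0.017, -0.025 and -0.012). With that trend removed, 1 SF3 gene was higher and 1 lower at an unadjusted p under 0.05. Sf3b1, the large subunit that closes over the branch site, read 35.1 ± 2.62 FPKM in controls and 32.7 ± 1.64 FPKM after knockdown (SD, n = 4 each), with overlap. Sf3b5, a small subunit that packs against Sf3b1, had the smallest p of all members. It read 4.97, 5.04, 5.13 and 5.19 FPKM in controls 1 to 4 and 5.65, 6.20, 6.05 and 6.54 FPKM in knockdown libraries 1 to 4. Every knockdown library was above every control, with a log2 difference of 0.22 ± 0.051 (SE; limma unadjusted p = 0.00198, Benjamini-Hochberg adjusted p = 0.266). Sf3b5 is annotated as a single exon of 3841 bases, of which 258 are coding (chr10:13005343-13009183, plus strand, GRCm38).

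The other 2 overlapped between the groups. Sf3b4, which contacts RNA upstream of the branch site, read 15.4, 15.4, 16.8 and 15.5 FPKM in controls and 16.2, 18.3, 17.7 and 18.3 FPKM in knockdown libraries (log2 difference 0.15 ± 0.053, SE; limma unadjusted p = 0.0215, Benjamini-Hochberg adjusted p = 0.298). Knockdown replicate 1 lay below control replicate 3. Of its sequence words, 51.2% also occur in another annotated gene. Sf3a2, a subunit of SF3A, read 10.8, 11.4, 11.7 and 12.2 FPKM in controls and 11.9, 13.8, 12.8 and 13.4 FPKM in knockdown libraries (log2 difference 0.16 ± 0.058, SE; limma unadjusted p = 0.0257, adjusted p = 0.304). Its exons overlap those of Plekhj1 on the other strand. With the trend over GC content and length removed, the log2 difference was 0.07 for Sf3b4 and 0.02 for Sf3a2, and 0.26 for Sf3b5.

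U2AF reads the polypyrimidine tract and the AG of the 3′ splice site. Its subunits U2af1 and U2af2 read 41.1 ± 0.867 and 26.6 ± 1.24 FPKM in controls, and 41.8 ± 2.43 and 26.1 ± 1.27 FPKM after knockdown (SD, n = 4 each). Neither gene had an unadjusted p under 0.05, with log2 differences of 0.024 and -0.023. With the trend over GC content and length removed these were -0.055 and -0.102. In that fit 1 of 3 U2AF entries was lower at a limma unadjusted p under 0.05, as were 540 of 12768 genes. The paralog U2af1l4 has 2 overlapping entries on chromosome 7 whose reads could be split by the counting, and both varied widely within the groups, over 2.49 to 4.90 FPKM and 3.66 to 6.32 FPKM.

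No PRP factor had an unadjusted p under 0.05. Of the 13, 6 had a higher and 7 a lower mean, with a median log2 difference of -0.033, which was 0.014 with either the trend over GC content and length removed or the striatal marker level as a covariate. Prpf8, the scaffold of the catalytic core, read 29.0 ± 1.11 FPKM in controls and 27.0 ± 2.02 FPKM after knockdown. Prpf19, the ubiquitin ligase of the PRP19 complex, read 20.7 ± 1.14 and 21.9 ± 0.817 FPKM (SD, n = 4 each). Both overlapped between the groups.

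LSm proteins form a ring on U6 RNA, and a related cytoplasmic ring takes part in mRNA decay. Lsm14b, which belongs to neither ring, was the most abundant at 35.1 ± 1.64 and 34.2 ± 0.940 FPKM (control and knockdown, SD, n = 4 each). Of 13 LSm genes, 10 had a higher mean in the knockdown group and 2 had an unadjusted p under 0.05. The median log2 difference was 0.029, and -0.00014 with the striatal marker level as a covariate. Lsm7 and Lsm4 are members of both rings. Lsm7 read 8.89, 8.92, 8.77 and 8.71 FPKM in controls and 9.53, 10.02, 9.91 and 9.77 FPKM in knockdown libraries. All knockdown libraries were above all controls (log2 difference 0.14 ± 0.039, SE; limma unadjusted p = 0.00698, Benjamini-Hochberg adjusted p = 0.266), and 62.8% of the sequence words of Lsm7 also occur in another annotated gene. Lsm4 read 18.9, 17.97, 16.6 and 17.98 FPKM in controls and 20.1, 20.7, 19.0 and 23.0 FPKM in knockdown libraries. The lowest knockdown library was just above the highest control (log2 difference 0.20 ± 0.066, SE; limma unadjusted p = 0.0143, adjusted p = 0.277). With the trend over GC content and length removed, the difference was 0.06 for Lsm7 and 0.07 for Lsm4.

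**Figure D3:**
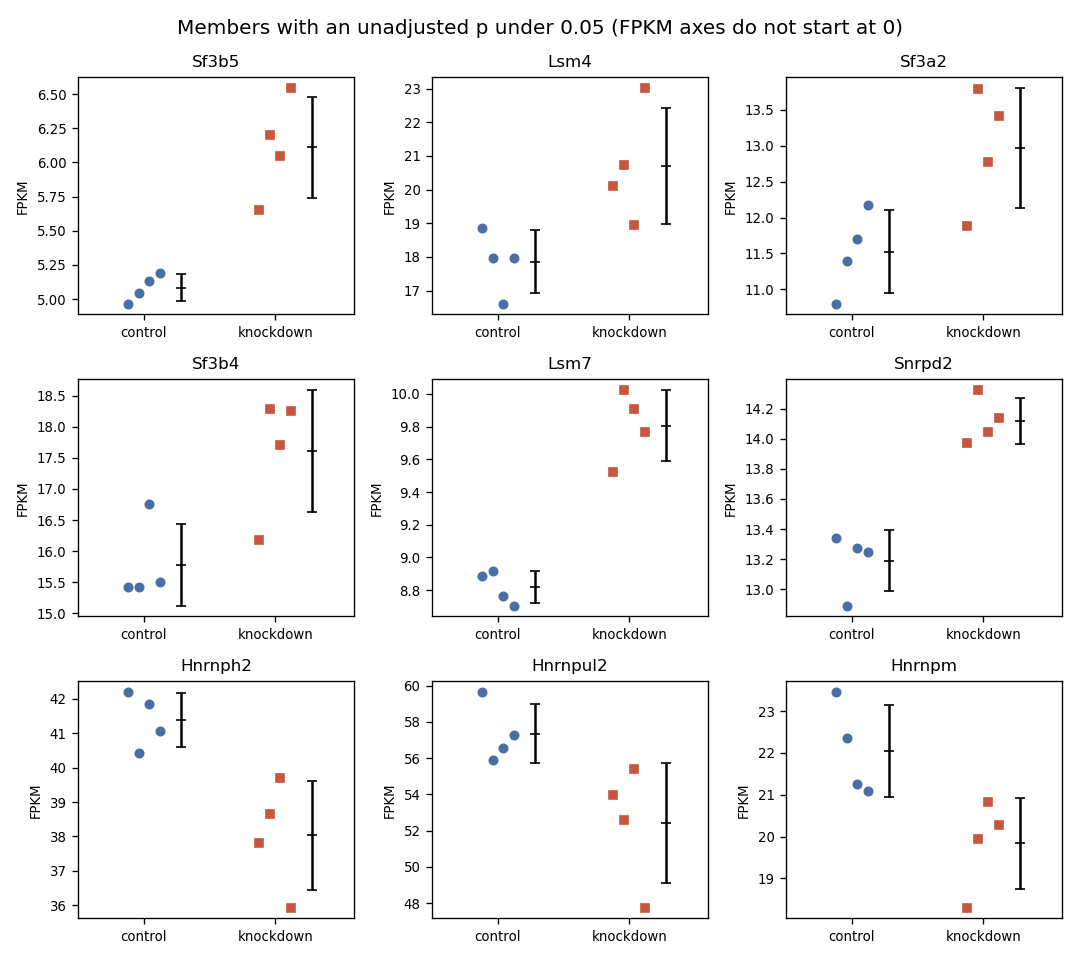
FPKM of the 9 members with an unadjusted p under 0.05, with 1 point per control (circles) and knockdown (squares) library and bars for the mean and SD (n = 4 per group); the axes do not start at 0. Groups were apart in 7 of the 9 panels and overlapped for Sf3b4 and Sf3a2, and every difference was small, from -0.14 to 0.22 on the log2 scale.

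The higher genes of these 9 mostly had shorter transcripts than the lower ones, with Sf3b5 the exception. The lead transcripts (the most abundant listed one) of the 6 higher genes were 468 to 3841 bases long with a median of 1668 bases, and those of the 3 lower genes 2364 to 5118 bases with a median of 3934 bases. Over 81 members with a listed transcript, Spearman's rho between transcript length and the log2 difference was -0.487, and over 12768 genes with a length it was -0.276. For GC content the rho was 0.372 and 0.442. These are correlations across genes that share the same 8 libraries, given as a description. By role group, the median lead transcript was 943 bases in LSm proteins and 2618 bases in SR proteins, with median log2 differences of 0.029 and 0.034. It was 3144 bases in PRP factors and 3222 bases in SF3A and SF3B, with median log2 differences of -0.033 and 0.0014. The Sm core (1108 bases) and the U1 or U2 specific genes (1268 bases) both had a median difference of 0.074. U2AF entries (1046 bases) had 0.0004 and hnRNPs (2520.5 bases) -0.021. With the trend removed, 3 of the 9 genes had an unadjusted p under 0.05, 1 higher and 2 lower, and the share of all genes called was 9.25% in place of 14.2%. With the striatal marker level as a covariate 3 of the 9 did, all higher, and the share of all genes was 7.54%.

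**Figure D4:**
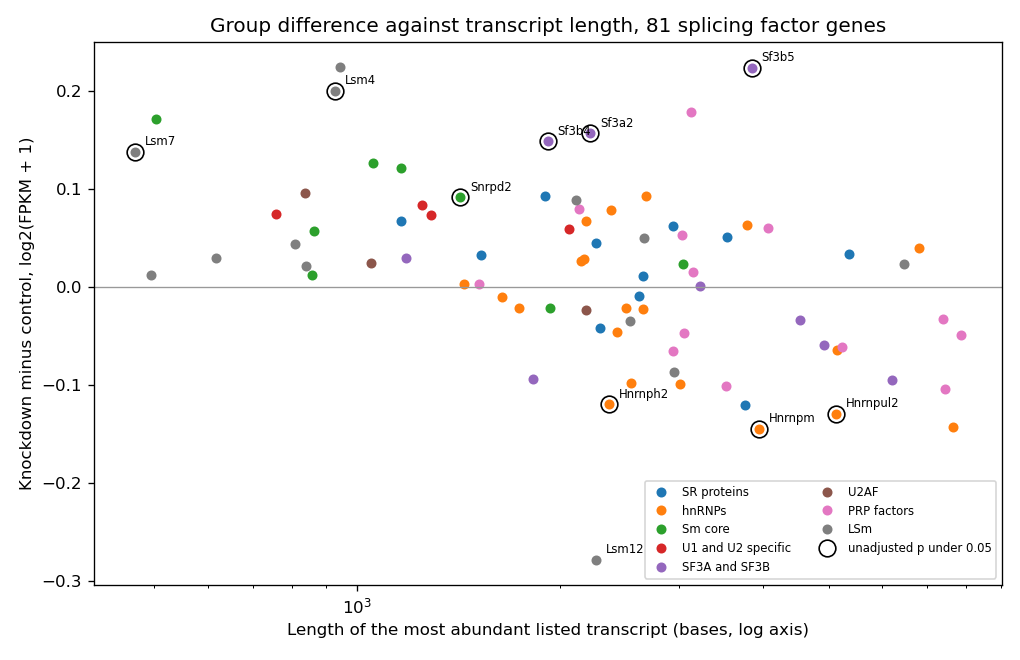
Knockdown minus control difference (log2(FPKM + 1)) against the length of the most abundant listed transcript (bases, log axis) for 81 members, coloured by role, with rings around the 9 members with an unadjusted p under 0.05. The points slope downward (Spearman's rho of -0.487 across genes), with Sf3b5 a long transcript with a positive difference and Lsm12 the lowest point at -0.28.

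Lsm12 and Lsm10, named after their values were seen, had the most extreme mean differences, and in both knockdown replicate 4 stood apart. Lsm12 read 15.08, 14.997, 14.05 and 15.03 FPKM in controls 1 to 4 and 15.9, 15.4, 17.0 and 4.73 FPKM in knockdown libraries 1 to 4. The log2 difference of Lsm12 was -0.28 with all libraries, 0.12 without knockdown replicate 4 and 0.08 with the striatal marker level as a covariate. Lsm10, which with Lsm11 replaces a pair of Sm proteins on the U7 particle of histone mRNA processing, read 2.84, 2.69, 3.47 and 2.74 FPKM in controls and 2.83, 3.17, 3.19 and 5.61 FPKM in knockdown libraries. The log2 difference of Lsm10 was 0.22 with all libraries, 0.05 without knockdown replicate 4 and 0.12 with the striatal marker level as a covariate. Knockdown replicate 4 also had the lowest striatal marker level, the lowest oligodendrocyte score and the highest astrocyte score of the 8 libraries, and the part of the oligodendrocyte and astrocyte markers in these values was not tested.

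At the level of transcripts, 12 of 181 tested had an unadjusted p under 0.05, 6 higher and 6 lower in the knockdown group, where 4.2% and 3.76% of all transcripts were. None passed the adjusted threshold in limma (smallest Benjamini-Hochberg adjusted p = 0.565), which 0.0256% of all transcripts did. The count was 19 without knockdown replicate 3, a run for which the rate over all transcripts is not given here. Lsm4-201 had the smallest p. It read 14.1, 13.8, 12.8 and 13.9 FPKM in controls 1 to 4 and 22.2, 16.3, 20.8 and 17.5 FPKM in knockdown libraries 1 to 4. All knockdown libraries were above all controls, replicates 1 and 3 most of all (log2 difference 0.46 ± 0.0995, SE; limma unadjusted p = 0.00198). In those same libraries the alternative Lsm4-205 was listed at 0, where it read 8.47 and 10.5 FPKM in knockdown replicates 2 and 4 and 7.60 to 9.62 FPKM in controls. The summed Lsm4 transcripts overlapped between the groups, at 21.1 to 24.7 FPKM in controls and 21.4 to 29.8 FPKM in knockdown libraries. Lsm4-201 also starts further upstream, at position 70673248 against 70673432 for Lsm4-205, and a further transcript, Lsm4-202, is listed. Lsm4-205 (105 codons) lacks 1 coding exon of Lsm4-201 (138 codons), so this exon is not all that separates their reads (chr8:70677778-70677876, plus strand, GRCm38, GENCODE M21):
Lsm4-201: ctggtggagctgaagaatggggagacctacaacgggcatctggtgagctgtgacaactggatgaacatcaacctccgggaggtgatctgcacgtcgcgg

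Further transcripts with an unadjusted p under 0.05 were Srsf9-201 and Lsm14a-203. Srsf9-201 read 12.9, 14.2, 14.0 and 14.9 FPKM in controls and 15.3, 16.7, 16.2 and 19.1 FPKM in knockdown libraries. It was higher in every knockdown library (log2 difference 0.24, limma adjusted p = 0.565), while the Srsf9 gene value overlapped between the groups. Lsm14a-203 was lower without overlap, at 7.09 ± 0.393 and 5.81 ± 0.721 FPKM (control and knockdown, SD, n = 4 each; log2 difference -0.25, limma adjusted p = 0.587). The remaining 5 of the 12, Sf3b5-201, Sf3b4-201, Sf3a2-203, Hnrnpul2-201 and Lsm7-201, had the direction of their genes, with log2 differences of 0.22, 0.15, 0.16, -0.13 and 0.16. Sf3b5, Sf3b4 and Hnrnpul2 have 1 listed transcript each, and Lsm7-201 made up 92.3% of the listed Lsm7 transcripts. These values largely repeat those of the genes and are no separate result.

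Other isoforms, named after their values were seen, differed sharply between libraries of 1 group. Prpf40b-207, a short 3′ transcript of a U1-associated factor, read 0.574, 0.743, 0.550 and 8.86 FPKM in controls and 10.3, 10.2, 0.744 and 14.7 FPKM in knockdown libraries. It was thus near or below 1 FPKM in 4 libraries and above 8 FPKM in the other 4, across both groups. Hnrnpf-201 read 21.3 to 23.5 FPKM in 3 controls and 3.60 FPKM in control replicate 2, where Hnrnpf-202 read 18.1 FPKM. In knockdown replicate 3 it read 1.34 FPKM and Hnrnpf-209 read 17.0 FPKM, against 0.273 to 0.960 FPKM for Hnrnpf-209 elsewhere. These 3 Hnrnpf transcripts encode the same 415 codons, and the gene value stayed between 18.1 and 21.2 FPKM.

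**Figure D5:**
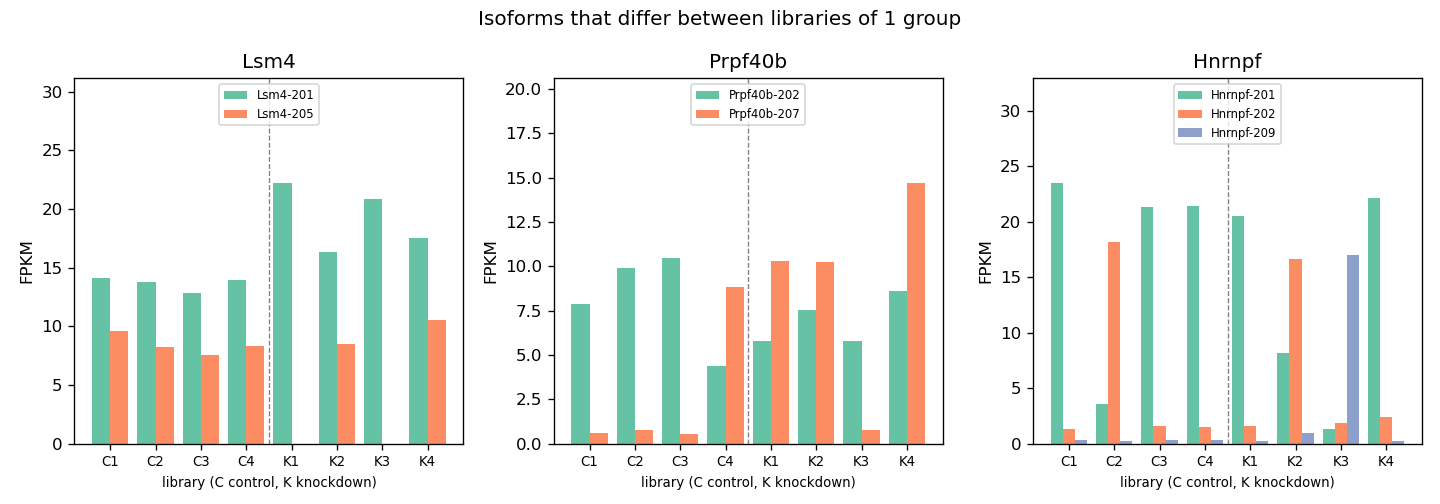
FPKM of listed isoforms of Lsm4, Prpf40b and Hnrnpf in control (C1 to C4) and knockdown (K1 to K4) libraries, 1 bar per isoform and library. Lsm4-205 is listed at 0 in K1 and K3, Prpf40b-207 is above 8 FPKM in C4, K1, K2 and K4, and the leading Hnrnpf isoform is another one in C2, K2 and K3.

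The wider splicing machinery, 121 listed genes for other spliceosome subunits, kinases, tissue-specific regulators and exon junction factors, gave a like picture. Of 120 measured, 59 had a higher and 61 a lower mean, with a median log2 difference of -0.0008. At an unadjusted p under 0.05, 10 were higher and 4 lower, 11.7% of the 120 against 14.2% of all genes, and none passed the adjusted threshold (limma, smallest Benjamini-Hochberg adjusted p = 0.266). The split was 6 higher and 8 lower after median-of-ratios rescaling (11.7%, against 13.9% of all genes), 5 and 6 after quantile normalization (9.17% against 14.1%) and 5 and 4 with the trend over GC content and length removed (7.50% against 9.25%). The 14 became 5 without control replicate 1, 8 without control replicate 2, 9 without control replicate 4 or knockdown replicate 1, and 7 without knockdown replicate 4. In the same order, 9.22%, 10.2%, 14%, 13.6% and 10.9% of all genes were called in these runs.

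The neuronal regulators Nova2 and Srrm4, which drives the inclusion of neural microexons, were among the higher ones. Nova2 read 13.5 ± 0.314 and 15.1 ± 0.699 FPKM without overlap, and Srrm4 6.35 ± 0.728 and 7.57 ± 0.651 FPKM with overlap (control and knockdown, SD, n = 4 each). Their log2 differences were 0.15 and 0.22. Snrnp35, a protein of the minor U11/U12 particle, read 5.08 ± 0.156 and 6.69 ± 1.22 FPKM (0.33), and the nuclease Smg6 of nonsense-mediated decay 4.10 ± 0.423 and 4.91 ± 0.280 FPKM (0.22). The SR protein kinase Srpk3 read 2.08 ± 0.101 and 2.39 ± 0.121 FPKM (0.14). The lower ones were led by Mbnl2, a regulator of adult brain splicing, at 12.4 ± 0.948 and 9.58 ± 1.37 FPKM without overlap (log2 difference -0.34, limma unadjusted p = 0.00763, Benjamini-Hochberg adjusted p = 0.266). The spliceosomal helicase Aqr (4.06 ± 0.280 and 3.496 ± 0.142 FPKM, log2 difference -0.17) and Crnkl1 (6.30 ± 0.391 and 5.55 ± 0.282 FPKM, -0.16) were also lower without overlap. Dhx15, the helicase that takes spent spliceosomes apart, read 12.6 ± 0.472 and 11.6 ± 0.604 FPKM (-0.12).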

How the data were processed

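The authors deposited 1 gene table and 1 transcript table in FPKM, per the file headers. Per the submitters' processing notes, the tools were FastQC, cutadapt, HISAT2 and StringTie, without versions, and the library kit was stranded, per the labels' protocols. Which build and annotation were used is not given in the sources used here. All 82 gene identifiers were found in GENCODE M21, 74 with equal coordinates, so positions are given on GRCm38. FPKM carries no read counts, so depth is unknown and no counting interval is given. The gene value was 0.157 to 3.58 times the sum of its listed transcripts.

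Values were taken to log2(FPKM + 1), a scale that understates changes of low genes, and features with a mean of at least 0.5 FPKM were tested with limma 3.58.1 in R 4.3.3 (empirical Bayes, robust and with a mean-variance trend, 4 against 4 libraries, two-sided, no block), adjusted by Benjamini-Hochberg over 13004 genes or 23415 transcripts. Shares of the summed listed transcripts (mean of 5% to 95%) were tested on the arcsine square root scale over 14200 shares. The tests were tried on simulated data. Members and lists were chosen with earlier results of these data known. Named were, per role group, the 2 most abundant members and up to 4 per direction under an unadjusted p of 0.05, then up to 12 transcripts, up to 8 shares, Snrpn and Snrpb, and up to 5 other splicing genes per direction. Outside this rule, Srsf10 is named as the host of named transcripts and Homer1 as the target, and Snrpc, Lsm2 and U2af1l4 were chosen after their values were seen, as were those the text says so of. Shared sequence words are 50 bases long. Alternatives covered the pseudocount, the filter, rescaling, the variance settings, weights per library, a replicate block, a striatal marker covariate, a GC content and length trend, summed transcripts and each library left out.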

Additional observations from a re-analysis of the deposited data

Results flagged for a closer look

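Each reported value was looked at for a library far from the 3 others of its group. Chance alone marks about 1 in 20 groups, and 70 values were checked in 2 groups each, so a few such libraries can arise by chance. Among genes, Sf3b4 read 16.8 FPKM in control replicate 3, Sf3b1 35.2 FPKM in knockdown replicate 3, Snrpb 23.5 FPKM in control replicate 4 and Crnkl1 6.88 FPKM in control replicate 1, each above the rest of its group. Lsm12 was low in control replicate 3 at 14.0 FPKM and in knockdown replicate 4 at 4.73 FPKM, and Lsm10 was high in knockdown replicate 4 at 5.61 FPKM.

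Among transcripts, Hnrnpm-206 was low in knockdown replicate 1 at 14.4 FPKM and Hnrnph2-203 in knockdown replicate 2 at 14.2 FPKM. High values were those of Lsm14a-203 in control replicate 4 (7.67 FPKM), Sf3b4-201 in control replicate 3 (18.9 FPKM), Srsf10-202 in control replicate 2 (2.27 FPKM) and Srsf10-205 in knockdown replicate 4 (9.86 FPKM). Hnrnpf-209 read 17.0 FPKM in knockdown replicate 3 and Prpf40b-207 8.86 FPKM in control replicate 4, each far above its group. The Srsf10-205 share was 53.1% in knockdown replicate 3, below the other knockdown libraries.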

How the results depend on the processing

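The adjusted threshold was passed by 0 members, member transcripts, member shares and other splicing genes in each setting run. Of 6 higher members at an unadjusted p under 0.05, leaving out 1 library gave 3 to 7. The count of lower members, 3, was 1 with the replicate block and 1 with the striatal marker level as a covariate, where it was a PRP factor and 0 of the 3 kept their call; it was 0 to 4 with 1 library left out. The 12 member transcripts became 7 with plain empirical Bayes and 9 to 19 with 1 library left out, and the 2 shares became 4 untransformed and 1 to 6 with 1 library left out. The rates over all transcripts and all isoform shares in these runs are not given here, so these counts cannot be set against them. The 14 other splicing genes became 6 with the replicate block, 3 with the striatal covariate, 9 with the trend over GC content and length removed and 5 to 17 with 1 library left out. The share of all genes called moved as well, from 14.2% to between 9.22% and 16.7% with 1 library left out. The cause was not tested, and leaving out a library removes its values and lowers the number of libraries at once. Replicate numbers did not pair the libraries: correlations of same-numbered libraries ran from -0.18 to 0.20, and 1 of 4 control libraries correlated best with its own number. The members' median log2 difference stayed between 0.0015 and 0.046.

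Of 657 values under the alternatives, over 37 named genes, transcripts and shares, 652 kept their direction. Most of the 37 were named for a small p in these same libraries. Where groups do not overlap, leaving out a library cannot turn the difference. The count is therefore no measure of stability. Since none passes the adjusted threshold, staying short of it says nothing of stability. Of the 9 members under an unadjusted p of 0.05, 3 to 9 kept that in each alternative. Lsm12 turned to 0.077 with the striatal covariate and 0.116 without knockdown replicate 4, and with 1 library left out ran from -0.4341 to 0.116. Snrpn ran from -0.06001 to 0.01386 with 1 library left out, turning in 3 cases. Of 14 further members named for abundance, 9 turned in at least 1 alternative, such as Hnrnpa1 (-0.02, up to 0.07), Prpf19 (0.08, down to -0.11) and Sf3b2 (0.0014, down to -0.04). Unknown depth limits what can be said of members near 1 FPKM.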
